A study of Homo sapiens with 6 samples.

Results

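The ID proteins and the SMAD proteins of the bone morphogenetic protein (BMP) pathway were followed through 10 genes of the deposited table, ID1, ID2, ID3, ID4, SMAD1, SMAD4, SMAD5, SMAD6, SMAD7 and SMAD9. They were found by gene symbol, each on 1 row, among 46427 genes. The members were chosen by function and with the measured counts of HMU and PBS libraries in view, among them the fall of SMAD6, so their changes are given as a description: their calls, taken from a fit over all genes, rest on the values that chose them and support nothing. RNA came from VK2/E6E7, an established cell line from human vaginal mucosa that carries the papillomavirus oncogenes E6 and E7 and is labelled wild type. The cells were grown in keratinocyte serum-free medium with EGF and bovine pituitary extract, and were left for 6 h with PBS alone or with 1e8 CFU/mL of a bacterium, Lactobacillus salivarius HHuMin-U (HMU). Each group had 3 libraries, described as biological replicates, and all values come from this single line.

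BMP ligands bind paired type I and type II receptor kinases, which phosphorylate the receptor-regulated proteins SMAD1, SMAD5 and SMAD9. These join the common partner SMAD4, enter the nucleus and raise a small set of early targets, among which the ID genes and the inhibitory SMAD6 and SMAD7 genes are the best known. ID proteins have a helix-loop-helix but no DNA-binding region, so they hold E proteins and related factors off DNA. In keratinocytes they are known for high levels in proliferating cells and for loss on differentiation.

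Total counts were 64292566 to 65957584 per library, and 3 counts equalled 0.0416 to 0.0522 CPM (counts scaled by library size, here after TMM adjustment). The 6 stratified epithelial markers KRT5, KRT14, TP63, CDH1, KRT13 and KRT6A were all detected and summed to 63400 to 63900 CPM in PBS and 62100 to 75800 CPM in HMU libraries, most of it KRT5 and KRT14. KRT13, a keratin of differentiating mucosal epithelium, was called higher, from 36.7 ± 2.83 to 140 ± 24.9 CPM, as were CDH1 and KRT6A, while KRT5, KRT14 and TP63 were not called. Of 8 markers of other cell types, MLANA was at 0 throughout, PTPRC and CD3E had at most 11 counts in any library, and the list summed to 173 to 179 CPM in PBS and 210 to 231 CPM in HMU libraries, mostly CD68 and COL1A1. Of the 5 tested, CD68, PECAM1 and VWF were called higher and COL1A1 and PDGFRB lower. Of all tested genes, 25.0% were called higher and 25.3% lower. PECAM1 and PDGFRB had at least 10 counts in every library of 1 group only and entered the test through that group. CD68 went from 57.8 ± 1.12 to 121 ± 7.39 CPM (SD, n = 3), COL1A1 from 117 ± 1.91 to 96.1 ± 6.97 CPM, and the endothelial PECAM1 from 6, 4 and 0 counts to 55, 44 and 74. The part of these markers in the results was not tested. Transcripts of 13 mitochondrial genes held 4.78 to 5.31% of counts in PBS and 6.08 to 6.28% in HMU libraries. HMU replicate 2 stood apart from the other HMU libraries, with chi-square values of 63.7 and 109 per degree of freedom against them over all genes, where those 2 gave 13.5 against each other and pairs of PBS libraries 4.87 to 5.91. In these bulk libraries, fewer cells that make a transcript and less of it per cell cannot be told apart.

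HMU was set against PBS to see how transcript levels differed after exposure to the bacterium. ID1 was the only one of the 10 genes called higher, ID2, ID3, ID4, SMAD1, SMAD5, SMAD6, SMAD7 and SMAD9 were called lower, and SMAD4 was not called. Calls are those of edgeR's quasi-likelihood test over 17990 genes at a Benjamini-Hochberg adjusted p under 0.05. That test called 25.0% of all tested genes higher and 25.3% lower. Higher genes were 49.8% of those called, and 23.5% with library sizes only, under which the 9 called members kept their directions and calls. Since the list was chosen with this comparison known, nothing is read from its 8 lower calls. A lower call with at least an 8-fold fall was given to 4 of the 10 genes, ID2, ID4, SMAD6 and SMAD9, and to 0.467% of tested genes. A lower call with at least a 2-fold fall was given to 6, also ID3 and SMAD1, and to 7.59% of tested genes. SMAD1 lay on the 2-fold line, and with RLE scaling or DESeq2 the count of 6 was 5. ID2, ID4 and SMAD9 lay close to the 8-fold line: the count of 4 was 1, SMAD6 alone, without PBS replicate 3 or without HMU replicate 2, and 2 without HMU replicate 1. In 8 genes every HMU library lay below every PBS library, as in 32.0% of tested genes, and in ID1 every HMU library lay above, as in 30.3%. All 10 genes passed the filter on low counts, but SMAD6 and ID4 had under 10 counts in every HMU library and passed through the PBS libraries alone.

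**Figure D1:**
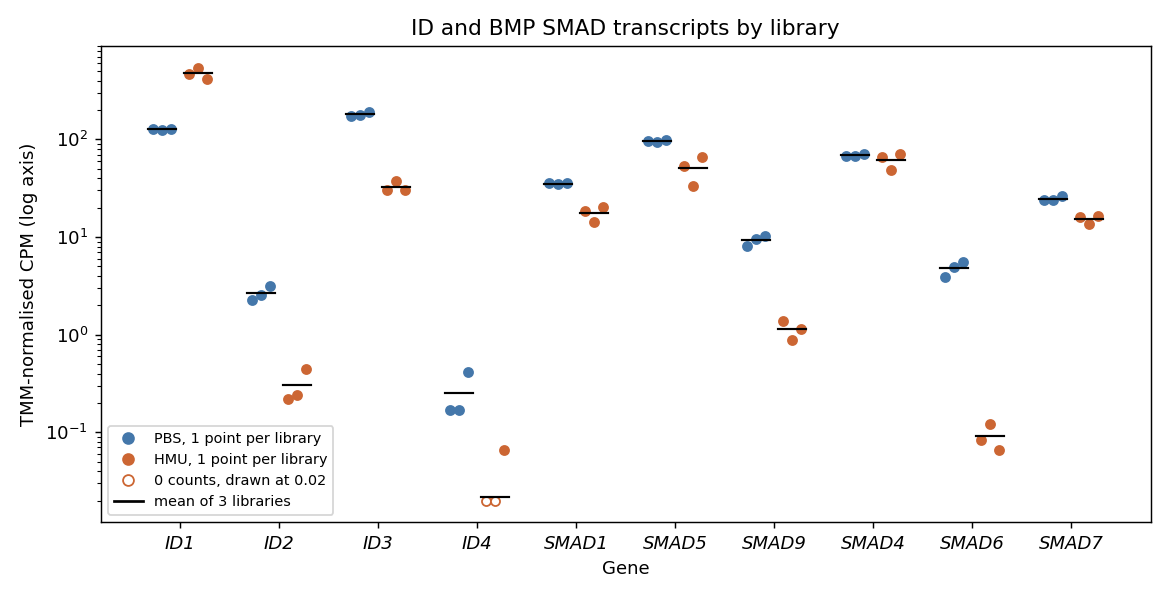
TMM-normalised CPM on a log axis for the 10 genes, 1 point per library and a bar at the mean of 3 libraries in each group. ID1 rises from about 127 to 476 CPM while ID3 goes from 180 to 32.6 CPM, SMAD6 drops below all other genes but ID4, and the groups overlap only in SMAD4.

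ID1 and ID3 were the abundant members of their family and moved in opposite directions. ID1 (gene ID 3397, chromosome 20 from 31605289 to 31606510, GRCh38) was at 128, 124 and 128 CPM in PBS replicates 1 to 3 and at 463, 544 and 420 CPM in HMU replicates 1 to 3. Every HMU library stood well above every PBS library, and HMU replicate 2 was the highest. The log2 fold change was 1.91 ± 0.100 SE. Few genes rose this far, since 3.31% of tested genes had a fitted rise at least as large. ID3 (gene ID 3399, chromosome 1 from 23557926 to 23559501) was at 175, 176 and 189 CPM in PBS and at 30.5, 37.1 and 30.2 CPM in HMU libraries. Its groups were likewise well apart, and the log2 fold change was -2.47 ± 0.0989 SE.

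The other ID genes were low in these cells and lower after HMU. ID2 (gene ID 3398, chromosome 2 from 8682056 to 8684461) was at 2.26, 2.58 and 3.13 CPM in PBS and at 0.219, 0.244 and 0.445 CPM in HMU libraries, with a log2 fold change of -3.12 ± 0.261 SE. HMU replicate 3 held 27 of the 54 HMU counts of ID2. ID4 (gene ID 3400, chromosome 6 from 19837370 to 19842197) was near the limit of detection, with 12, 12 and 30 counts in PBS libraries and 0, 0 and 4 in HMU libraries. The ratio of PBS to HMU was 11.2 with a 95% exact binomial interval of 4.12 to 42.5, which covers counting error only. Its call was lost without PBS replicate 3, which held 30 of 54 PBS counts, and without HMU replicate 1, and the fitted log2 fold change of -3.37 became -7.07 without HMU replicate 3, which leaves 0 HMU counts.

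Because TPM values are scaled by transcript length, they allow levels to be compared between genes. In PBS, ID3 was the highest at 446 ± 23.3 TPM (mean ± SD of 3 libraries, as in all values with ± but no SE), then ID1 at 298 ± 5.61, ID2 at 4.82 ± 0.838 and ID4 at 0.151 ± 0.0874 TPM, and no neighbours in this order overlapped. After HMU the order was ID1 at 840 ± 48.3 TPM, ID3 at 60.9 ± 3.01, ID2 at 0.405 ± 0.204 and ID4 at 0.00894 ± 0.0155 TPM. Within each library ID1 made up 39.8% ± 0.964 of the summed ID TPM in PBS and 93.2% ± 0.306 after HMU, while the share of ID3 went from 59.5% ± 0.866 to 6.76% ± 0.281. The ratio of ID1 to ID3 TPM was 0.643 to 0.694 in PBS and 13.2 to 14.4 in HMU libraries, a ratio taken inside each library that no scaling of libraries can change. The summed ID TPM were 732, 733 and 782 in PBS and 894, 954 and 854 in HMU libraries. On TPM the mean sum was 1.2 times as high after HMU. On TMM-adjusted CPM, which take no account of length, it was 1.64 times as high, at 305, 302 and 321 in PBS and 494, 581 and 451 in HMU libraries. TPM carry no TMM adjustment, and for these 10 genes the changes read from them lie lower than the fitted ones: the mean TPM of ID1 rose 2.82-fold where the fit gave 3.75-fold, and that of SMAD7 was 2.14-fold lower where the fit gave 1.59-fold.

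**Figure D2:**
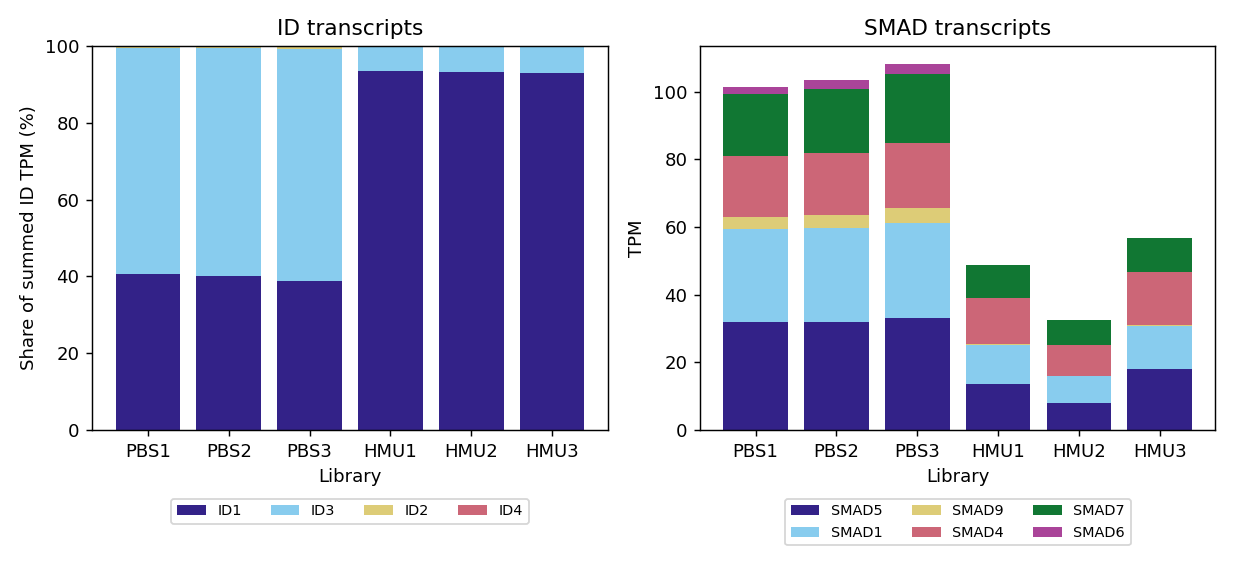
Left, the share of each ID gene in the summed ID TPM of each library (%); right, stacked TPM of SMAD1, SMAD5, SMAD9, SMAD4, SMAD7 and SMAD6 in each library. ID1 takes 38.8 to 40.7% of the ID sum in PBS and 92.9 to 93.5% in HMU libraries, and HMU replicate 2 has the lowest SMAD bar.

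The start regions of ID1 and ID3 are shown because the genes share a family and a known regulator and moved apart. Both run from 250 bases before to 50 bases after the annotated start, 5′ to 3′ on the gene's strand, from RefSeq's annotation of GRCh38.p14, ID1 at chr20:31605039-31605338 on the plus strand and ID3 at chr1:23559452-23559751 on the minus strand. Capitals mark matches to the TATA-box letters TATAAA on either strand.
ID1: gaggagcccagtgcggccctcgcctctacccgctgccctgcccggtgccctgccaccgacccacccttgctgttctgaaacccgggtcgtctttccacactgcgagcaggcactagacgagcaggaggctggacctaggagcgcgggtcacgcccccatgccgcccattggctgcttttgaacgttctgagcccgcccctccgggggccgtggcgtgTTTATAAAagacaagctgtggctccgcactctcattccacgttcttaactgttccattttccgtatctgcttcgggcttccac
ID3: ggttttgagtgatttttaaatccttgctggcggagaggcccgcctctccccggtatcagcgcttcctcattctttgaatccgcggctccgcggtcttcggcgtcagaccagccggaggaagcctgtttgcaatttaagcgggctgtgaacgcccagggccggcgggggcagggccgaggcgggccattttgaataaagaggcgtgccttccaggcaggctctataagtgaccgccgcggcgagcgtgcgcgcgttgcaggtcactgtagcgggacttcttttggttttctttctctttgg
The ID1 window holds 2 overlapping matches, the first at position -33 from the start, and 11.5% of 35116 RefSeq promoter windows hold at least 1. The ID3 window has none of these letters. ID4, which was lower after HMU, also has a match, at position -29. So do a window of SMAD1, at -225, and a window of SMAD7, at -35, both also lower. Whether the letters go with the direction of change was not tested. Neither window of ID1 and ID3 holds GGCGCC, a GC-rich core that BMP SMADs can bind, which 19.2% of windows hold, or an E-box (CANNTG), which 68.7% hold.

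The receptor-regulated SMAD genes were all lower after HMU, and SMAD9 by far the most. SMAD1 (gene ID 4086, chromosome 4 from 145480770 to 145559176) was at 35.5, 34.9 and 35.4 CPM in PBS and at 18.4, 14.1 and 20.3 CPM in HMU libraries, a log2 fold change of -1.0 ± 0.127 SE. SMAD5 (gene ID 4090, chromosome 5 from 136132845 to 136182733) was at 95.8, 94.9 and 97.7 CPM in PBS and at 53.2, 33.7 and 66.1 CPM in HMU libraries, a log2 fold change of -0.91 ± 0.21 SE. In both genes the PBS libraries lay within a few percent of each other, HMU replicate 2 was the lowest and the groups did not overlap. SMAD9 (gene ID 4093, chromosome 13 from 36844831 to 36920854), also called SMAD8, was at 8.18, 9.58 and 10.2 CPM in PBS and at 1.38, 0.888 and 1.15 CPM in HMU libraries. Its log2 fold change was -3.03 ± 0.168 SE, a fall that 0.456% of tested genes matched or passed. SMAD9 was a small part of this class in either group, at 6.24% ± 0.645 of the summed TPM of SMAD1, SMAD5 and SMAD9 in PBS and 1.55% ± 0.258 after HMU. SMAD5 held 50.3% ± 0.259 and 53.5% ± 4.12 of that sum and SMAD1 43.5% ± 0.509 and 45.0% ± 3.97, so these shares differed by less than the spread of the HMU libraries.

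SMAD4, the common partner that receptor-regulated SMADs of both the BMP and the TGF-beta branch need, was the member that changed least. SMAD4 (gene ID 4089, chromosome 18 from 51030213 to 51085042) was at 67.7, 68.0 and 71.4 CPM in PBS and at 66.2, 48.1 and 71.3 CPM in HMU libraries. The groups overlapped, with HMU replicate 2 well below the rest. The log2 fold change was -0.16 ± 0.138 SE, and it was -0.44 with library sizes only, where SMAD4 was called lower. That scaling moved the median of all tested genes from -0.003 to -0.28. The ratio of SMAD4 to the summed TPM of SMAD1, SMAD5 and SMAD9 was 0.286 to 0.294 in PBS and 0.495 to 0.559 in HMU libraries.

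Both inhibitory SMAD genes were lower, by very different amounts. SMAD6 (gene ID 4091, chromosome 15 from 66702236 to 66782849), whose product blocks BMP receptors and SMAD1, had 275, 352 and 398 counts in PBS and 5, 7 and 4 counts in HMU libraries. These are 3.89, 4.92 and 5.52 CPM against 0.0844, 0.122 and 0.0660 CPM, so the highest HMU library was far below the lowest PBS library. The fitted fall was 51.9-fold (log2 fold change -5.70 ± 0.278 SE), the ratio of the summed counts, 1025 to 16, was 53.0 after scaling by the TMM library sizes, with a counting interval of 32.5 to 93.0, and 0.0834% of tested genes fell at least as far. On the deposited TPM, which carry no TMM adjustment, the ratio of means was 101. SMAD6 also had more counts per FPKM in HMU libraries, 7540 to 8380 against 5460 to 5580 in PBS, 1.45 times as many; for the other genes but ID4, which had 1.16 times as many, this ratio was 0.988 to 1.05. SMAD7 (gene ID 4092, chromosome 18 from 48919853 to 48950965), which blocks TGF-beta and BMP receptors, was at 23.9, 23.8 and 26.2 CPM in PBS and at 16.1, 13.7 and 16.5 CPM in HMU libraries. The groups did not overlap, and the log2 fold change was -0.67 ± 0.0954 SE.

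Since SMAD7 was the more abundant inhibitory SMAD, the loss of SMAD6 took away a minor part of their transcripts. SMAD6 held 11.5% ± 1.36 of the summed TPM of SMAD6 and SMAD7 in PBS and 0.289% ± 0.141 after HMU. The sum of SMAD6 and SMAD7 was 20.7, 21.4 and 23.2 TPM in PBS and 9.60, 7.32 and 10.2 TPM in HMU libraries, and that of SMAD1, SMAD5 and SMAD9 was 62.9, 63.7 and 65.6 against 25.5, 16.1 and 31.2 TPM. Inhibitory transcripts per receptor-regulated transcript came to 0.328, 0.336 and 0.353 in PBS and 0.377, 0.455 and 0.326 in HMU libraries. The groups overlapped in this ratio. In PBS the TPM order of the SMAD genes was SMAD5 at 32.2 ± 0.672, SMAD1 at 27.8 ± 0.273, SMAD7 at 19.2 ± 0.912, SMAD4 at 18.5 ± 0.687, SMAD9 at 4.0 ± 0.489 and SMAD6 at 2.5 ± 0.426 TPM. The spreads of SMAD7 and SMAD4 overlapped, but within each PBS library SMAD7 was above SMAD4. After HMU, SMAD5 at 13.2 ± 5.0, SMAD4 at 12.7 ± 3.32, SMAD1 at 10.7 ± 2.54 and SMAD7 at 9.01 ± 1.52 TPM had overlapping spreads between libraries. Within each HMU library SMAD4 was above SMAD1, and SMAD1 above SMAD7. All 4 lay above SMAD9 at 0.369 ± 0.0961 and SMAD6 at 0.0247 ± 0.00737 TPM.

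The start region of SMAD6, the gene that fell the most, is shown for a SMAD-binding sequence in it. The window is at chr15:66701986-66702285 on the plus strand of GRCh38.p14, from RefSeq as above, and capitals mark GTCTAGAC, the palindromic SMAD-binding element.
SMAD6: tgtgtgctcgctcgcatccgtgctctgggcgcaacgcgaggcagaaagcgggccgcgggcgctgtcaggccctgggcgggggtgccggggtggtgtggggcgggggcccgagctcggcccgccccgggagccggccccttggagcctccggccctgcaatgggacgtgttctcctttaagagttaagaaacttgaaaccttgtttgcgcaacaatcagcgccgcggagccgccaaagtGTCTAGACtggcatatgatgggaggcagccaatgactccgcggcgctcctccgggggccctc
The match begins at position -12 from the annotated start, and 71 of 35116 promoter windows, or 0.202%, hold this sequence. No window of the other 9 genes holds it. The SMAD6 window does not hold GGCGCC, the GC-rich core named above, which windows of SMAD1, SMAD4 and SMAD5 hold. A match of letters is a description and does not show that a SMAD protein binds there.

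HMU replicate 2 differed from the other HMU libraries in most of these genes, and the difference went with transcript length across the table. Tested genes were split by length into 4 classes of like size. In the shortest class, with a longest transcript of up to 2075 bases, HMU replicate 2 was above the mean of the other HMU libraries by a median of 0.26 on the log2 scale, and in the longest class, from 5123 bases, the median was -0.31. ID1 and ID3, with transcripts of 1233 and 1251 bases, were at 0.30 and 0.29, while SMAD5, SMAD4 and SMAD9, with 7012, 8769 and 5592 bases, were at -0.82, -0.51 and -0.47. Against their class medians went ID2, at -0.33 with 2041 bases, and SMAD6, at 0.34 with 5198 bases. So did ID4, at -0.41 with 2344 bases, and SMAD1, at -0.45 with 3293 bases, in a class with a median of 0.08. In HMU replicate 2, ID2, SMAD6 and ID4 had 14, 7 and 0 counts, but SMAD1 had 813. Over all tested genes, the fold changes of HMU against PBS also went with length, at a median of 0.20 in the shortest and -0.15 in the longest class. The part of length in the members' changes was not tested. Without HMU replicate 2 the log2 fold changes were 1.80 for ID1, -2.99 for ID2, -2.57 for ID3 and -2.85 for ID4. They were -0.86 for SMAD1, -0.69 for SMAD5, -2.88 for SMAD9, -5.95 for SMAD6 and -0.59 for SMAD7. Every one of these genes was still called. SMAD4, not called with or without this library, went from -0.16 to -0.0.

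**Figure D3:**
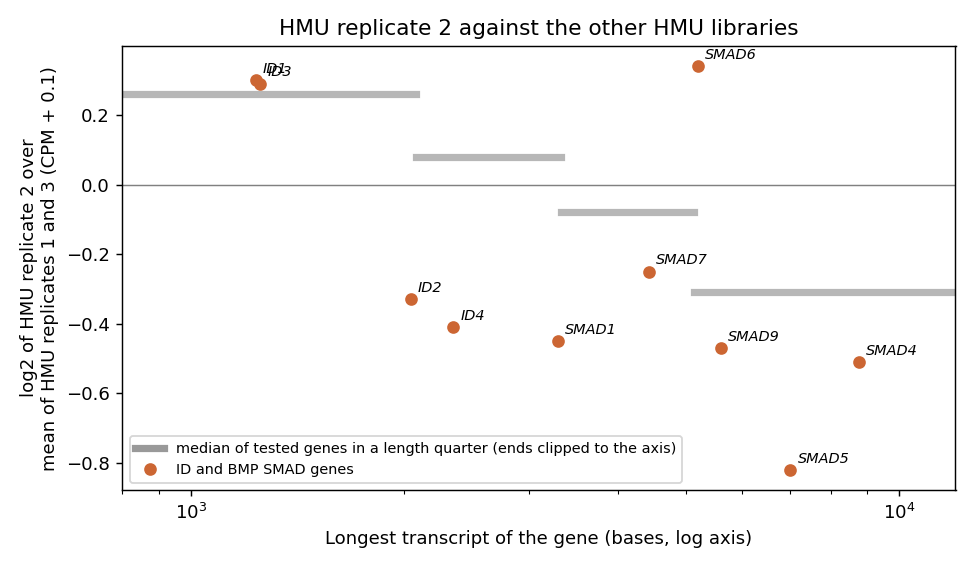
Log2 ratio of HMU replicate 2 to the mean of HMU replicates 1 and 3 (CPM + 0.1) against the longest GENCODE 29 transcript of each gene in bases on a log axis; grey bars are medians of all tested genes in 4 length classes. ID1 and ID3 lie near the median of short genes at 0.26, and ID2 at -0.33 lies below it. SMAD5 at -0.82 lies below the median of long genes at -0.31, and SMAD6, with 7 counts in HMU replicate 2, lies above that median.

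Other genes of the pathway were mixed. The 3 pathway lists were chosen with earlier results of these data known, and most named genes are those of largest change. Their calls, shares and p-values, here and in the next paragraphs, are therefore a description and no independent test. Of 39 listed BMP ligands, receptors and antagonists, 26 were tested, of which 4 (15.4%) were higher, 9 (34.6%) lower and 13 not called, beside 25.0% and 25.3% of all tested genes. With library sizes only, or on log2(TPM + 1), 16 were lower. Of all 17990 tested genes, 7942 and 9153 were lower under these settings, against 4547 in the main fit. Of the 13 calls, 5 were of genes with at least 10 counts in every library of 1 group only (BMP4, BMP6, GDF5, NOG and SOST), which entered the test through that group. The median log2 fold change of the 26 tested genes of the list was -0.20, beside -0.003 for all tested genes. The ligand gene BMP6 rose from 0.172 ± 0.116 to 1.92 ± 0.362 CPM (3.47 ± 0.342 SE on the log2 scale); without PBS replicate 3, which held 22 of its 37 PBS counts, the change was 4.16. FST, which encodes the activin and BMP antagonist follistatin, rose from 42.3 ± 4.55 to 148 ± 7.87 CPM (1.81 ± 0.0946 SE on the log2 scale, edgeR adjusted p = 5.4e-06). BAMBI, a decoy receptor and itself a BMP target, fell from 9.27 ± 0.590 to 3.70 ± 0.845 CPM (edgeR adjusted p = 0.00037). SOST, the gene of the antagonist sclerostin, had 78, 110 and 89 counts in PBS and 0, 0 and 11 in HMU libraries, with a fitted log2 fold change of -4.34; without HMU replicate 3 no HMU counts are left and it was -9.42. The ligand genes BMP2 and BMP7 went opposite ways and were named after their values were seen. BMP2 rose from 16.7 ± 1.49 to 27.9 ± 5.14 CPM and BMP7 fell from 32.2 ± 2.04 to 19.8 ± 0.473 CPM (edgeR adjusted p = 0.0036 and 0.00022). On log2(TPM + 1) BMP2 was not called. Its groups overlapped in TPM, at 11.3, 9.98 and 11.9 in PBS and 17.0, 10.6 and 14.7 in HMU libraries.

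Among 25 tested of 26 listed SMAD partners, modifiers and corepressors, 7 (28.0%) were higher, 3 (12.0%) lower and 15 not called, with a median of -0.04, beside the same shares of all genes as above. SMAD3, the receptor-regulated SMAD of the TGF-beta and activin branch, rose from 84.9 ± 2.58 to 441 ± 64.1 CPM (2.38 ± 0.113 SE on the log2 scale, edgeR adjusted p = 3.4e-06). It also lies on chromosome 15, starting at 67065602, 282753 bases beyond the end of SMAD6. The gene of its branch partner SMAD2 was not called, at 81.6 ± 1.19 and 92.6 ± 13.7 CPM. In TPM, SMAD2 and SMAD3 together came to 0.688 ± 0.0197 of SMAD1, SMAD5 and SMAD9 in PBS and to 5.73 ± 0.719 of them after HMU. The ubiquitin ligase genes NEDD4L and SMURF1, whose products mark SMADs and their receptors for breakdown, rose from 57.0 ± 1.64 to 146 ± 24.4 CPM and from 51.9 ± 2.51 to 102 ± 10.8 CPM (edgeR adjusted p = 8.4e-05 and 0.00011). CTDSPL, a small C-terminal domain phosphatase gene, fell from 54.5 ± 2.68 to 28.6 ± 1.74 CPM (edgeR adjusted p = 5.7e-05). With library sizes only, 11 genes of this list were lower, beside 7942 of all 17990 tested genes. Without HMU replicate 2 or without HMU replicate 3, 5 were lower, beside 5487 of 18485 and 4873 of 18426 tested genes.

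The third list held the E protein genes whose products ID proteins bind and other targets of BMP and ID action. Of 15 listed, 14 were tested, of which 2 (14.3%) were higher, 8 (57.1%) lower and 4 not called, beside 25.0% and 25.3% of all tested genes. Of the 8 lower calls, 1 was of ATOH8, which had at least 10 counts in PBS libraries only and entered the test through them. The median was -0.78, beside -0.003. The homeobox gene DLX5 fell from 15.9 ± 0.831 to 1.54 ± 0.315 CPM (-3.36 ± 0.142 SE on the log2 scale, edgeR adjusted p = 1.8e-06). Of the 3 E protein genes, TCF4 fell from 41.3 ± 1.12 to 13.0 ± 3.42 CPM (edgeR adjusted p = 0.00021), TCF12 fell from 60.8 ± 1.73 to 32.2 ± 9.5 CPM (edgeR adjusted p = 0.0062), and TCF3 was not called at 63.2 ± 2.0 and 62.9 ± 4.34 CPM; TCF12 and TCF3 were named after their values were seen. CDKN2B, a cyclin-dependent kinase inhibitor gene, fell from 132 ± 10.4 to 56.6 ± 8.22 CPM, and RUNX2, a Runt transcription factor gene, rose from 8.29 ± 0.264 to 17.1 ± 3.69 CPM (edgeR adjusted p = 0.00011 and 0.0012).

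**Figure D4:**
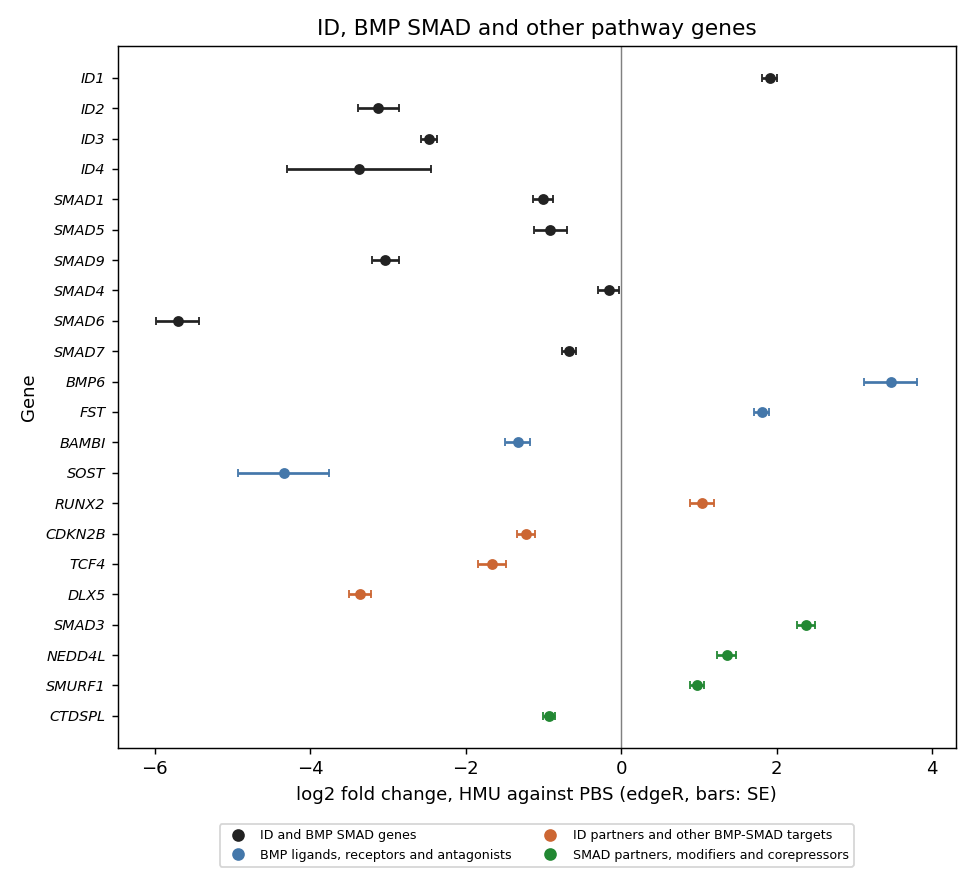
Log2 fold change of HMU against PBS with its SE (edgeR) for the 10 ID and BMP SMAD genes, in black, and for the 4 named genes of each of 3 pathway lists. ID1 at 1.91 is the only black point to the right of 0, SMAD6 at -5.70 is the farthest to the left, and SMAD3 at 2.38 lies on the other side.

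The genes closest to SMAD6 in level over the 6 libraries were GPR37, a receptor gene, FIBIN and the non-coding gene LUARIS, with root mean square differences of 0.594, 0.613 and 0.657 in log2(CPM + 0.1). GPR37 went from 2.96 ± 0.216 to 0.165 ± 0.0741 CPM. Closest to ID1 were GLTP, a glycolipid transfer protein gene, at 0.185, PLAU, the gene of urokinase, at 0.189, and LYPD3 at 0.327. PLAU went from 132 ± 2.72 to 446 ± 51.6 CPM. This measure follows level and change together and says nothing of shared control.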

How the data were processed

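There were 3 mRNA libraries for each of PBS and HMU, made with the TruSeq stranded kit, per the labels' protocols. The deposited read counts are whole numbers per gene, per the file headers. The authors also deposited FPKM, scaled by transcript length and library, and TPM, scaled by transcript length and to the same sum in every library; both units are named per the file headers. HISAT2 2.1.0, StringTie 2.1.3b, Trimmomatic 0.38, FastQC 0.11.7 and the GRCh38 build are listed per the submitters' processing notes. Not given in the sources used here: counter, annotation release, strand setting. Treated columns are headed HMO and were taken as the HMU samples. Without known strand, reads of a gene and its antisense partner cannot be told apart; SMAD5-AS1 had 2 to 12 counts per library, ID2-AS1 0 to 14, SMAD1-AS1 at most 1, SMAD1-AS2 0 and the pseudogene ID2B at most 3. A gene annotated across ID3, LOC124903876, was not analysed here.

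Counts were fitted in R 4.3.3 with edgeR 4.0.16 (filterByExpr, TMM, quasi-likelihood fit with legacy = FALSE and group as the only term) over 17990 genes, tested on simulated data. SE is the log2 fold change over the square root of F. The p-values measure the spread of 3 libraries per group from 1 line. Members and lists were chosen with earlier results of these data known. From each pathway list the text names the 4 called genes of largest change with at least 1 CPM in a group, and, for SMAD6 and ID1, the 3 genes most alike over 6 libraries. Alternatives were RLE scaling, library sizes only, other filters, DESeq2 1.42.0, limma-voom and limma-trend (limma 3.58.1) on the log2 of FPKM + 1, TPM + 1 or TPM + 0.1, a replicate block, each library left out and, added after seeing the data, the legacy fit. Positions and promoters are RefSeq's for GRCh38.p14, matched by gene ID for all 10 genes, and lengths GENCODE 29's, known for 87.9% of tested genes.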

Additional observations from a re-analysis of the deposited data

How the results depend on the processing

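ID1 kept its rise, and ID2, ID3, SMAD1, SMAD5, SMAD6, SMAD7 and SMAD9 their lower calls, under every alternative that tested them. ID4 lost its call without PBS replicate 3 or HMU replicate 1 (log2 fold change -2.80 and -2.83). SMAD4 was called lower with library sizes only (-0.44), on log2(TPM + 1) (-0.54), on log2(TPM + 0.1) (-0.58) and on log2(FPKM + 1) (-0.39). No member changed direction. The members with at least an 8-fold fall, 4 in the fit as reported, numbered 1 to 4 with 1 library left out, and 0 on log2(TPM + 1) and log2(FPKM + 1), where the pseudocount shrinks the change of low genes. Of the BMP list, 4 higher and 9 lower became 2 and 16 on log2(TPM + 1) and 2 and 15 on log2(TPM + 0.1), with 16 lower with library sizes only and 15 on log2(FPKM + 1). Of the SMAD partner list, 7 higher and 3 lower became 3 and 12 on either TPM scale, with 11 lower with library sizes only and 9 on log2(FPKM + 1). Its lower members numbered 2 to 5 with 1 library left out, and 5 without HMU replicate 2 or HMU replicate 3. Of the third list, 1 was higher on either TPM scale. These scalings moved the median of all genes to between -0.38 and -0.12. Library sizes only put 23.5% of called genes higher, against 49.8%, and on log2(TPM + 1) it was 17.7%. Of all 17990 tested genes, 4547 were lower in the main fit. With library sizes only 7942 were lower, on log2(TPM + 1) 9153, on log2(TPM + 0.1) 9126 and on log2(FPKM + 1) 7612. The cause of the single-library moves was not tested.

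Same-numbered libraries had correlations of -0.0229, 0.0789 and 0.105 between their deviations from the group means, and the other pairs -0.0984 to 0.0219. With 3 libraries per group, these values cannot show whether the replicate numbers pair the samples. With the replicate block, 4294 genes were higher and 4350 lower, against 4503 and 4547. Depth limits ID4 and, after HMU, SMAD6 and ID2.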

Other observations

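Further genes of the pathway lists, named after their values were seen, went different ways. Of the low BMP targets, HEY1, also a Notch target, fell from 0.997 ± 0.0928 to 0.325 ± 0.0844 CPM (edgeR adjusted p = 0.00075), while MSX1, a homeobox gene, was not called, with 13, 10 and 19 counts in PBS and 3, 13 and 6 in HMU libraries. ATOH8, a basic helix-loop-helix factor gene, had 34, 40 and 42 counts in PBS and 0, 0 and 3 in HMU libraries, and NOG, the gene of the antagonist noggin, 24, 22 and 18 against 3, 5 and 4. Both were tested only through their PBS counts, so no p is given. The antagonist genes GREM1, with 16, 31 and 26 counts in PBS and 46, 33 and 26 in HMU libraries, and BMPER, with 12, 12 and 17 against 7, 5 and 15, were not called. HES1, a Notch target, was not called at 52.4 ± 1.45 and 57.4 ± 4.65 CPM. CDKN2A, the neighbour of CDKN2B, rose from 127 ± 2.47 to 195 ± 34.8 CPM (edgeR adjusted p = 0.0037). It was not called on log2(TPM + 1) or log2(TPM + 0.1), and its TPM were 281 ± 4.06 in PBS and 325 ± 34.0 after HMU.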
